A study of Mus musculus with 101 samples.

Results

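The STAT3 pathway and its feedback were followed through 10 genes: the receptor genes Osmr, Il6st and Lifr, the kinase gene Jak2, the transcription factor Stat3 itself, its inhibitor Socs3, and Cebpb, Cebpd, Bcl3 and Pim1, which are known as genes that cytokine signalling through STAT3 can induce. They were chosen by name, as the entries with those symbols in the expression file of each library. They are 10 of the 24056 genes in the files, and all 10 were found.

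Cytokines of the interleukin-6 family bind receptor pairs that share the chain encoded by Il6st. The receptor-bound kinases JAK1, JAK2 and TYK2 then phosphorylate STAT3, which moves to the nucleus and activates genes. One of these is Socs3, whose protein binds the receptor and the kinase and shuts the signal down, so the pathway carries its own brake. In brain, STAT3 signalling is known for its part in the response of astrocytes to injury and inflammation.

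The mice, labelled C57, received lipopolysaccharide (LPS, a molecule of bacterial outer membranes that triggers inflammation) at 5 mg/kg, or phosphate-buffered saline (PBS), into the peritoneum. The areas labelled PFC and VCX were taken after 1, 2 or 14 days. PolyA RNA was sequenced from ribosomes pulled down through an HA tag carried by astrocytes (IP) and from the cleared lysate before the pull-down (input). The LPS mice and their PBS controls both carry the tag. What drives it is not given in the sources used here, nor are the ages of the mice. The 26 groups hold 101 libraries, of which 55 are from females and 46 from males. Most groups have 4 libraries. The LPS groups of the day 2 PFC IP and the day 2 VCX input have 3 each. For PFC at day 1 there are also 7 whole tissue libraries, 3 labelled LPS and 4 labelled PBS, all from females. The labels do not say whether the libraries come from separate animals, so p-values measure the spread between libraries. An IP and an input may come from 1 lysate, and PFC and VCX from 1 animal. All tests treat the libraries as independent. By the labels, 1 sequencing project holds both fractions of a day, and whole tissue was a separate project. Day and project cannot be told apart in the IP and input.

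Reads per library ran from 4.21 to 72.96 M, with a median of 40.8 M, and 3 inputs of day 14 held under 10 M (M, megareads). The summed level of 10 astrocyte marker genes was 14360 to 16400 FPKM in the day 1 IP and 1015 to 1272 FPKM in the day 1 input. That of 10 neuronal markers was 119 to 160.2 FPKM in the IP and 2908 to 3423 FPKM in the input. Not every other list was lower in the IP. In day 1 PFC after PBS, neutrophil and monocyte sums were 10.7 to 41.3 FPKM in the IP and 1.96 to 6.78 FPKM in the input. Meningeal fibroblast sums were 46.4 to 69.7 FPKM and 37.15 to 45.1 FPKM. Pericyte and smooth muscle sums overlapped, at 49.7 to 65.2 FPKM and 64.6 to 70.5 FPKM. Microglial, endothelial and oligodendrocyte sums were lower in the IP. FPKM are reads divided by the gene's length and the library's total. Some libraries stand apart. The whole tissue library labelled PBS replicate 3 had 96.6 FPKM of Gfap, a marker of reactive astrocytes. The LPS libraries of whole tissue held 110.9 to 137.3 FPKM of it, against 27.5 to 34.7 FPKM in the other 3 PBS libraries. The file of this library and that of PBS replicate 4 each carry a header name unlike the sample's title. At day 14, 4 LPS libraries stand apart from their groups: PFC IP replicate 1, VCX IP replicate 2, PFC input replicate 1 and VCX input replicate 2, all from males. They held 26.34, 12.46, 9.72 and 24.43 M reads, the fewest of their groups except in the VCX input. Their Gfap levels were 428.8, 577.9, 28.7 and 34.8 FPKM, the highest of their groups. The labels do not say whether these 4 libraries come from 1 animal, so they may not be separate cases. Results that rest on these 5 libraries are given with and without them.

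The DNA in front of Stat3 and Socs3 is shown because these genes are the activator and the feedback inhibitor, and both rose after LPS. The sequences are RefSeq promoters on GRCm38.p6, 250 bases before to 50 bases after the gene's start, on the minus strand at chr11:100939491-100939790 for Stat3 and chr11:117969317-117969616 for Socs3. Capitals mark a match to TTCNNNGAA, the spacing that STAT proteins are known to bind.
Stat3: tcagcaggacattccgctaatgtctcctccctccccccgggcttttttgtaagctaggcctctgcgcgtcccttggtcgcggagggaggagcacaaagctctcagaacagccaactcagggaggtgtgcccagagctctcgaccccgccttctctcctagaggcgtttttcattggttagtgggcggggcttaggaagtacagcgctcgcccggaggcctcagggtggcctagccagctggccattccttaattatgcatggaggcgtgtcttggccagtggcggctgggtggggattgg
Socs3: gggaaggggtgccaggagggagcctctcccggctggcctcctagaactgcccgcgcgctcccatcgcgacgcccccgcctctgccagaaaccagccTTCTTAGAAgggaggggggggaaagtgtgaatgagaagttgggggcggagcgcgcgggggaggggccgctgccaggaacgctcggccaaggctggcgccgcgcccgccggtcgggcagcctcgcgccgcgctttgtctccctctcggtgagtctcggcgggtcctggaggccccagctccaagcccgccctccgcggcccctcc

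Both strands were searched for TTCNNNGAA and for the form with 1 base more between its ends. Of the 10 genes 9 had a promoter in the table, 11 promoters in all. The Socs3 promoter was the only one with a match, TTCTTAGAA, which begins 154 bases before the RefSeq start, at chr11:117969512-117969520. That start lies 681 bases inside the Socs3 gene of the GENCODE annotation used for gene positions here, so the printed window and the match are within that gene. For Stat3 both starts are the same. Among all 32851 promoters of the table, 8.3% hold the shorter form and 6.95% the longer. A match describes letters in this window and says nothing of whether a protein binds there.

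In PBS mice the genes were spread over a wide range of levels, and their order differed between IP and input. Over the 24 PBS IP libraries the medians were 55.8 FPKM for Il6st, 34.7 for Stat3, 15.98 for Lifr, 15.9 for Jak2, 4.04 for Cebpd and 2.65 for Osmr. Below these came Cebpb at 1.89, Pim1 at 0.947, Socs3 at 0.355 and Bcl3 at 0.026 FPKM. Over all days the ranges of Lifr and Jak2 overlapped, 13.7 to 18.1 FPKM and 12.3 to 18.8 FPKM. At day 2 they were apart, with Lifr at 15.2 to 17.4 FPKM and Jak2 at 12.6 to 14.0 FPKM in PFC. In VCX they stood at 15.7 to 18.1 FPKM and 12.3 to 13.8 FPKM. At day 1 in PFC the means had the other order, 15.75 FPKM for Lifr and 16.96 FPKM for Jak2. Their order was not tested. In the 24 PBS input libraries Jak2 and Il6st were highest, with medians of 14.9 and 14.7 FPKM, followed by Lifr and Stat3. Cebpb (5.42 FPKM) and Pim1 (2.27 FPKM) stood above Cebpd (1.42 FPKM) and Osmr (0.619 FPKM) there, the reverse of their order in the IP.

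The first comparison asks which of these genes respond in the astrocyte IP 1 day after LPS. In PFC, 8 of the 10 genes rose: Osmr, Jak2, Stat3, Socs3, Cebpb, Cebpd, Bcl3 and Pim1. In VCX, 6 rose: Osmr, Jak2, Stat3, Socs3, Cebpb and Bcl3. None fell in either area. Over all 13545 genes tested, 11.8% rose and 8.82% fell in PFC, and 11.6% rose and 10% fell in VCX. The median log2 change of the 10 genes was 1.15 in PFC and 1.02 in VCX, against 0 and -0.01 over all genes tested. A gene is called here at a limma adjusted p under 0.05, and log2 changes are of scaled FPKM plus 0.1, which understates the change of low genes. Bcl3 passed the filter of 0.5 scaled FPKM through LPS libraries alone, 5 in the IP against 0 PBS libraries, so its call is no support for the count.

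**Figure D1:**
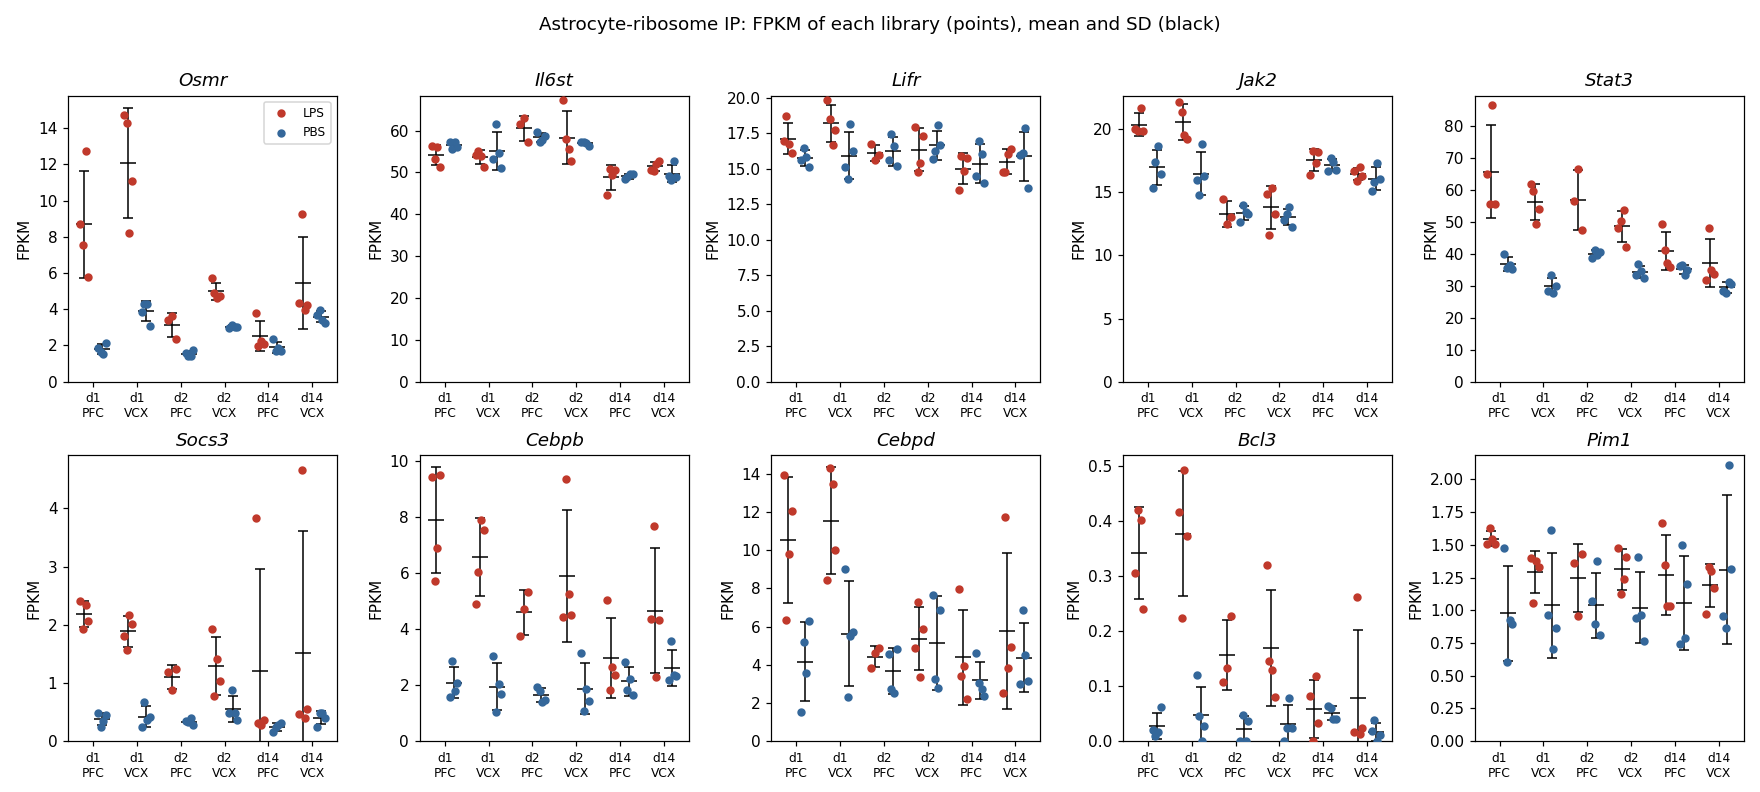
FPKM of each gene (vertical axis, linear from 0) in every IP library (points) by day (d1, d2, d14) and area, LPS in red left of PBS in blue, with the group mean and SD in black. At day 1 the LPS libraries of Stat3, Socs3, Osmr, Cebpb and Bcl3 all lie above the PBS libraries in both areas, and at day 14 single LPS libraries stand high, such as Socs3 at 3.83 and 4.66 FPKM.

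Of the receptor genes, Osmr rose, while Il6st and Lifr did not pass the test. Osmr encodes the chain that joins with the Il6st product to bind oncostatin M (chr15:6813577-6874969, minus strand, mm10). In the day 1 PFC IP it stood at 8.72, 7.57, 12.7 and 5.78 FPKM after LPS, against 1.87, 1.63, 1.54 and 2.16 FPKM after PBS. In the day 1 VCX IP it stood at 14.7, 14.3, 8.23 and 11.1 FPKM after LPS, against 3.88, 4.32, 4.27 and 3.1 FPKM after PBS. The lowest LPS library lay well above the highest PBS library in each area. Osmr rose 4.59-fold in PFC, by 2.20 ± 0.23 (log2 ± SE, limma adjusted p 1.48e-05, n = 4 each), and 2.99-fold in VCX, by 1.58 ± 0.23 (limma adjusted p 0.000218).

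Il6st, which encodes the shared signalling chain (chr13:112464070-112510086, plus strand), was the highest of the 10 genes in the PBS IP and did not pass the test. It averaged 54.1 ± 2.38 FPKM after LPS and 56.5 ± 0.872 FPKM after PBS in PFC (SD, n = 4 each), and 53.6 ± 1.65 FPKM after LPS and 55.2 ± 4.55 FPKM after PBS in VCX. The log2 changes were -0.04 ± 0.07 in PFC and -0.05 ± 0.07 in VCX (limma adjusted p 0.73 and 0.66). Lifr encodes the chain that pairs with Il6st for leukaemia inhibitory factor (chr15:7090614-7197489, plus strand). It averaged 17.1 ± 1.12 FPKM after LPS and 15.8 ± 0.578 FPKM after PBS in PFC, and 18.2 ± 1.31 FPKM after LPS and 15.9 ± 1.67 FPKM after PBS in VCX. The groups overlapped in both areas and neither change of Lifr passed the test, 0.14 ± 0.07 in PFC (limma adjusted p 0.194) and 0.18 ± 0.07 in VCX (limma adjusted p 0.0812).

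Jak2, the gene of a receptor-bound tyrosine kinase (chr19:29251828-29313080, plus strand), rose by little. Its level in the PFC IP was 20.02, 19.9, 21.7 and 19.8 FPKM after LPS, against 15.4, 17.4, 18.6 and 16.5 FPKM after PBS. VCX IP levels were 22.1, 21.3, 19.5 and 19.2 FPKM after LPS, against 16, 14.7, 18.8 and 16.3 FPKM after PBS. The groups did not overlap in these deposited values, but in VCX the lowest LPS library (19.2 FPKM) and the highest PBS library (18.8 FPKM) nearly met, and after scaling they overlapped. The change was 0.28 ± 0.07 in PFC (limma adjusted p 0.00767) and 0.31 ± 0.07 in VCX (limma adjusted p 0.00397).

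Stat3, the transcription factor that the pathway is named for (chr11:100885098-100939540, minus strand), was already high after PBS and rose further. In the PFC IP it stood at 65.0, 55.8, 86.6 and 55.6 FPKM after LPS, against 39.9, 35.5, 36.6 and 35.3 FPKM after PBS. Levels in the VCX IP were 62.0, 59.6, 49.5 and 54.0 FPKM after LPS, against 28.4, 33.5, 27.6 and 30.01 FPKM after PBS. No LPS library overlapped with the PBS libraries, and PFC replicate 3 after LPS was the highest of all. Stat3 rose 1.78-fold in PFC (0.83 ± 0.12, limma adjusted p 0.000121) and 1.87-fold in VCX (0.90 ± 0.12, limma adjusted p 5.8e-05). An exon of Stat3 overlaps Stat5a on the other strand, and the strand used in counting is not given in the sources used here, so reads there cannot be told apart. Stat5a fell by 0.67 in both areas in the same comparisons (limma adjusted p 0.00112 and 0.00111).

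Socs3, the feedback inhibitor whose promoter is printed above (chr11:117966079-117970047, minus strand), was low in the IP after PBS and rose several-fold. Its level in the PFC IP was 2.41, 1.93, 2.33 and 2.06 FPKM after LPS, against 0.489, 0.25, 0.346 and 0.444 FPKM after PBS. The VCX IP held 1.8, 1.56, 2.17 and 2.0 FPKM after LPS, against 0.249, 0.664, 0.355 and 0.415 FPKM after PBS. Every LPS library lay above every PBS library. Socs3 rose 5.07-fold in PFC (2.34 ± 0.22, limma adjusted p 1.39e-06) and 4.07-fold in VCX (2.03 ± 0.22, limma adjusted p 6.27e-06), the largest log2 change of the 10 genes in each area with 0.1 FPKM added. As a ratio of mean FPKM with nothing added, Bcl3 was first, at 12.5 in PFC and 7.86 in VCX, against 5.72 and 4.48 for Socs3.

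Cebpb encodes a transcription factor of inflammatory and acute phase genes (chr2:167688915-167690418, plus strand). In the PFC IP it stood at 9.42, 5.72, 6.91 and 9.51 FPKM after LPS, against 1.59, 2.87, 1.79 and 2.09 FPKM after PBS. VCX IP levels were 4.88, 6.04, 7.88 and 7.52 FPKM after LPS, against 3.03, 1.03, 2.04 and 1.69 FPKM after PBS. The groups were apart in both areas. Cebpb rose by 1.91 ± 0.28 in PFC (limma adjusted p 0.000216) and by 1.78 ± 0.28 in VCX (limma adjusted p 0.000356).

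Cebpd, which encodes a related factor (chr16:15887286-15891031, plus strand), varied more between libraries. In the PFC IP it stood at 13.9, 6.32, 9.83 and 12.1 FPKM after LPS, against 1.53, 5.21, 3.58 and 6.3 FPKM after PBS. Levels in the VCX IP were 8.42, 14.3, 13.5 and 9.99 FPKM after LPS, against 9.0, 2.29, 5.49 and 5.73 FPKM after PBS. The lowest LPS and highest PBS libraries of PFC nearly met, and the groups overlapped in VCX. Cebpd rose by 1.46 ± 0.46 in PFC (limma adjusted p 0.0409), and its change of 1.14 ± 0.46 in VCX did not pass the test (limma adjusted p 0.0997). The PFC call was lost without PBS replicate 1 or 3, or LPS replicate 1, 3 or 4 (limma adjusted p 0.0914, 0.0826, 0.11, 0.0737 and 0.0955), and with PFC fitted alone (0.105).

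Bcl3 encodes a nuclear partner of NF-kappaB (chr7:19808462-19822770, minus strand), and its IP level was the lowest of the 10 genes. In the PFC IP it was 0.305, 0.419, 0.402 and 0.241 FPKM after LPS, against 0.0199, 0.01, 0.0171 and 0.0621 FPKM after PBS. The VCX IP held 0.417, 0.223, 0.493 and 0.373 FPKM after LPS, against 0.119, 0.0448, 0 and 0.0276 FPKM after PBS. The groups were apart in both areas. On the log2 scale with 0.1 added, the change was 2.01 ± 0.33 in PFC (limma adjusted p 0.000305) and 1.91 ± 0.33 in VCX (limma adjusted p 0.000468).

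Pim1 encodes a serine/threonine kinase induced by cytokines (chr17:29490753-29496112, plus strand). In the PFC IP it was 1.51, 1.63, 1.54 and 1.5 FPKM after LPS, against 1.48, 0.608, 0.922 and 0.898 FPKM after PBS. The highest PBS library came within a few hundredths of the lowest LPS library. Pim1 rose by 0.71 ± 0.22 in PFC (limma adjusted p 0.0352), and in VCX its change of 0.34 ± 0.22 did not pass the test (limma adjusted p 0.306). The PFC call was lost without PBS replicate 2, 3 or 4 or LPS replicate 2 or 3 (limma adjusted p 0.126, 0.0617, 0.0951, 0.108 and 0.0748) and without the filter on low values (0.0547). Cebpb, Cebpd, Bcl3 and Pim1 also share exon sequence with genes on the other strand, Tmem189, Spidr, Gm16175 and Gm26885, so their reads there cannot be told apart either.

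Markers of other cells moved with these changes. Of 12 microglia and macrophage markers, 9 rose in the day 1 PFC IP, where their summed level was 73.6 to 83.1 FPKM after LPS and 44.1 to 51.0 FPKM after PBS. In the VCX IP 10 rose and 1 fell, with sums of 61.1 to 79.9 FPKM after LPS and 33.1 to 41.1 FPKM after PBS. Of 11 neutrophil and monocyte markers tested, 9 rose in PFC, with sums of 126.9 to 192.9 FPKM after LPS and 10.7 to 41.3 FPKM after PBS. In VCX 10 of the 11 rose, with sums of 105 to 160.7 FPKM after LPS and 6.77 to 18.3 FPKM after PBS. Which markers passed the filter on low values through LPS libraries alone is not given here, so the marker counts are no support. Of 9 endothelial markers tested 4 rose in PFC and 5 in VCX. Their sums were 8.06 to 12.8 FPKM after LPS and 6.81 to 9.6 FPKM after PBS in PFC, and 10.1 to 16.2 FPKM after LPS and 6.24 to 9.75 FPKM after PBS in VCX. In the PFC IP the counts that rose and fell were 2 and 2 of 10 astrocyte markers, 0 and 1 of 10 neuronal, 1 and 1 of 7 oligodendrocyte, 1 and 1 of 8 meningeal fibroblast and 0 and 3 of 5 pericyte and smooth muscle markers. No marker of the microglial, neutrophil and endothelial lists was at 0 in every library of a day 1 IP group, and their part in the results was not tested. In bulk RNA, more cells of a type and more RNA per cell cannot be told apart.

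In the day 1 input, which holds all cell types, 6 of the 10 genes rose in PFC and 8 in VCX. There 8.1% of the 14286 genes tested rose and 8.84% fell in PFC, and 7.76% rose and 10.4% fell in VCX. Osmr, Stat3, Socs3, Cebpb, Cebpd and Bcl3 rose in both areas, and Il6st and Jak2 also in VCX. The median log2 change of the 10 genes was 0.61 in PFC and 0.42 in VCX, against -0.02 and -0.03 over all genes. Bcl3 again passed the filter through LPS libraries alone, 4 against 0 PBS libraries.

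Socs3 in the PFC input stood at 4.75, 3.2, 2.5 and 2.93 FPKM after LPS, against 1.29, 1.12, 0.969 and 1.19 FPKM after PBS. The groups did not overlap, and it rose by 1.37 ± 0.15 (limma adjusted p 8.92e-06). In the VCX input it averaged 3.75 ± 0.355 FPKM after LPS and 1.88 ± 0.294 FPKM after PBS, also without overlap (0.92 ± 0.15, limma adjusted p 0.000366). Osmr, which in the IP had the second largest change in PFC, averaged 1.88 ± 0.382 FPKM after LPS and 0.919 ± 0.246 FPKM after PBS in the PFC input (0.91 ± 0.18, limma adjusted p 0.00234). In the VCX input it averaged 2.29 ± 0.185 FPKM after LPS and 0.723 ± 0.175 FPKM after PBS (1.49 ± 0.18, limma adjusted p 2.79e-05). Both comparisons of Osmr were free of overlap.

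Stat3 rose in the input by less than in the IP. It averaged 14.5 ± 1.29 FPKM after LPS and 10.7 ± 0.211 FPKM after PBS in PFC (0.39 ± 0.06, limma adjusted p 0.000487). In VCX it averaged 13.1 ± 0.601 FPKM after LPS and 9.9 ± 0.526 FPKM after PBS (0.36 ± 0.06, limma adjusted p 0.000856). Cebpb averaged 8.42 ± 0.807 FPKM after LPS and 5.24 ± 0.385 FPKM after PBS in PFC (0.62 ± 0.09, limma adjusted p 0.000171), and its VCX change was 0.48 ± 0.09 (limma adjusted p 0.00131). Cebpd averaged 4.21 ± 0.529 FPKM after LPS and 1.55 ± 0.534 FPKM after PBS in PFC (1.37 ± 0.24, limma adjusted p 0.00116), and in VCX it rose by 1.26 ± 0.24 (limma adjusted p 0.0018). Its groups were apart in both areas of the input.

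Bcl3 stood at 0.496, 0.93, 0.889 and 0.748 FPKM after LPS in the PFC input, against 0.109, 0.205, 0.108 and 0.0682 FPKM after PBS, a change of 1.81 ± 0.30 (limma adjusted p 0.000564). Its VCX change was 1.62 ± 0.30 (limma adjusted p 0.00121). Il6st stood at 18.8, 19.04, 19.7 and 18.8 FPKM after LPS in the VCX input, against 15.4, 15.04, 14.4 and 15.8 FPKM after PBS, with no overlap (0.28 ± 0.05, limma adjusted p 0.000665). Jak2 averaged 19.6 ± 1.86 FPKM after LPS and 15.8 ± 1.53 FPKM after PBS in the VCX input (0.27 ± 0.08, limma adjusted p 0.0324). The Jak2 groups overlapped after scaling. That call was lost without PBS replicate 1, 2 or 3 or LPS replicate 2 or 3 (limma adjusted p 0.0968, 0.0618, 0.112, 0.0683 and 0.111) and with VCX fitted alone (0.061). Lifr and Pim1 passed the test in neither input. Pim1 in PFC averaged 2.69 ± 0.841 FPKM after LPS and 1.66 ± 0.444 FPKM after PBS (0.60 ± 0.23, limma adjusted p 0.0871), with a call once PBS replicate 2 was left out (0.0163).

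Beside these input changes, 11 of 12 microglia and macrophage markers rose and 1 fell in PFC, and 10 rose and 1 fell in VCX. Their sums were 452.8 to 540.8 FPKM after LPS and 269.4 to 279 FPKM after PBS in PFC, and 385 to 471.8 FPKM after LPS and 247.3 to 255.7 FPKM after PBS in VCX. All 5 neutrophil and monocyte markers tested rose in both areas. Their whole list summed to 16.15 to 34.4 FPKM after LPS and 1.96 to 6.78 FPKM after PBS in PFC. In VCX it summed to 13.3 to 27.8 FPKM after LPS and 1.84 to 2.8 FPKM after PBS. Markers this low after PBS may have passed the filter through LPS libraries alone, so this count is no support. Of 12 endothelial markers 6 rose in PFC, with sums of 102 to 113 FPKM after LPS and 55.3 to 60.3 FPKM after PBS, and 8 rose in VCX, with sums of 106.2 to 109 FPKM after LPS and 49.0 to 63.7 FPKM after PBS. Their part in the input changes was not tested.

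**Figure D2:**
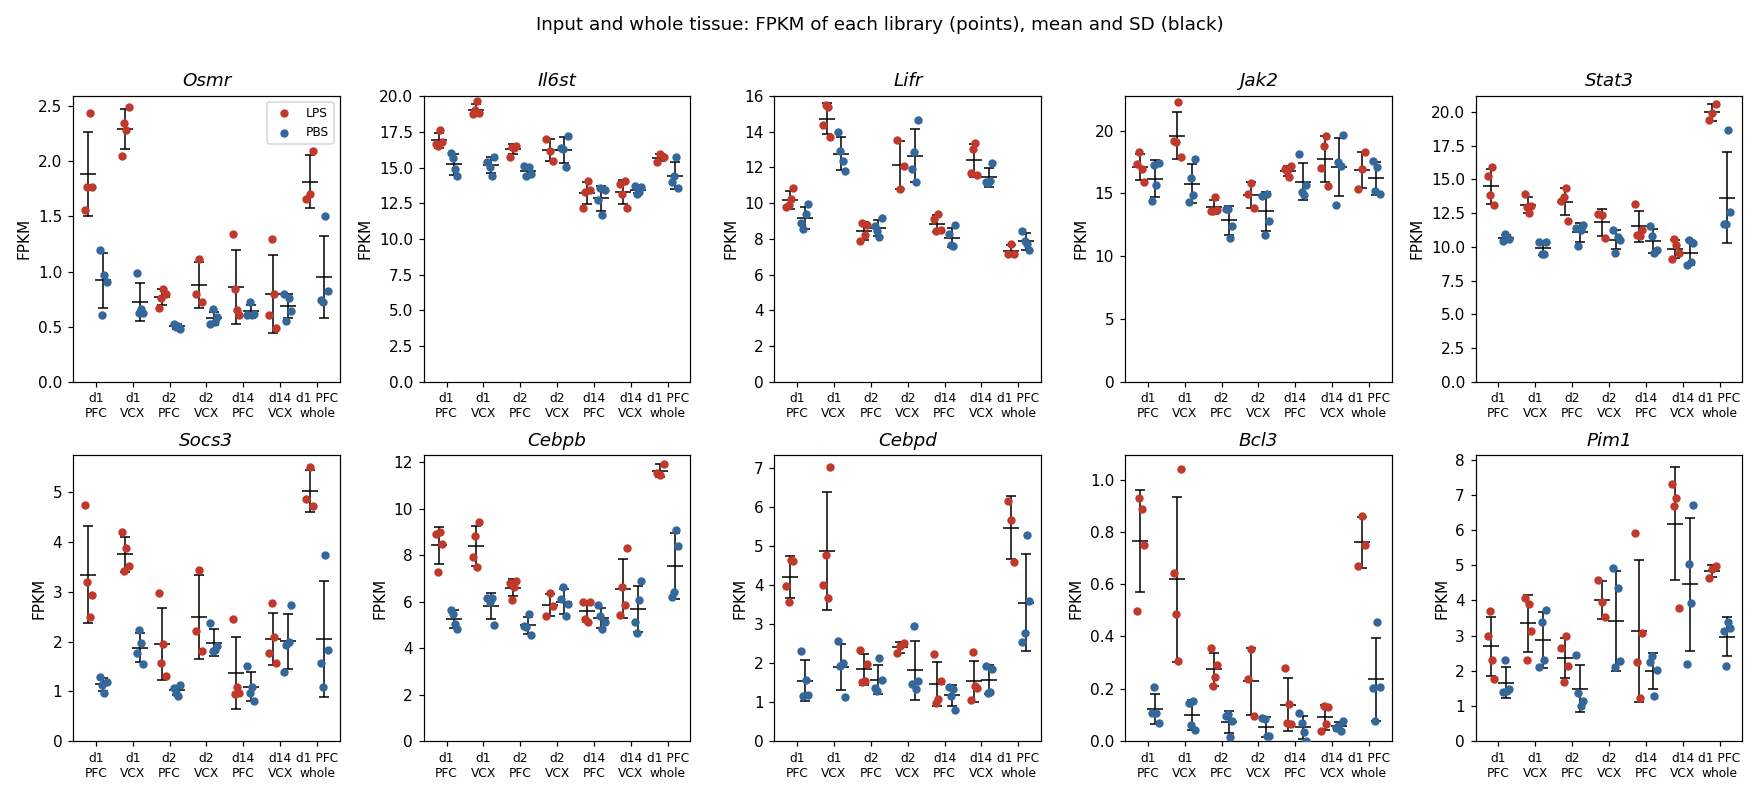
FPKM of each gene (vertical axis, linear from 0) in every input library by day and area and in the whole tissue libraries of day 1 PFC, LPS in red left of PBS in blue, with the group mean and SD in black. Osmr, Stat3, Socs3, Cebpb, Cebpd and Bcl3 separate LPS from PBS at day 1, and in whole tissue 1 library labelled PBS lies near the LPS libraries.

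Where each gene's RNA sits was asked by setting IP against input in the PBS mice. At each of the 3 days 6 of the genes were higher in the IP and 3 lower. Over all genes tested 45.6% were higher in the IP and 43% lower at day 1, 45% higher and 42.3% lower at day 2, and 44.2% higher and 43.4% lower at day 14, so most genes differ between the fractions. Over both areas Il6st had the largest excess in the IP by limma on scaled FPKM, at 55.9 ± 3.12 FPKM in the IP and 15.2 ± 0.606 FPKM in the input at day 1 (SD, n = 8 each). Stat3 stood at 33.4 ± 4.3 FPKM in the IP and 10.3 ± 0.545 FPKM in the input. The scaled log2 differences at days 1, 2 and 14 were 2.55, 2.57 and 2.56 for Il6st, and 2.36, 2.46 and 2.34 for Stat3. Those of Osmr were 2.23, 2.45 and 2.43, those of Cebpd 1.99, 1.92 and 1.99, and those of Lifr 1.22, 1.33 and 1.35. In VCX alone Osmr stood above Il6st at every day, at 2.95, 2.85 and 2.83 against 2.57, 2.50 and 2.52. In PFC alone it stood below, at 1.52, 2.06 and 2.03 against 2.53, 2.65 and 2.60. The areas differed for Osmr at days 1 and 2 (limma adjusted p 0.00298 and 0.00545). Lifr had a larger excess in PFC than in VCX at days 1, 2 and 14, by 0.39, 0.49 and 0.47 (limma adjusted p 0.0236, 0.00926 and 0.0126). Of all genes 6.96%, 4.54% and 1.91% differed between the areas at these days.

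Socs3, Cebpb and Pim1 were lower in the IP. Socs3 averaged 0.401 ± 0.136 FPKM in the IP and 1.51 ± 0.447 FPKM in the input at day 1, with scaled log2 differences of -1.09, -0.95 and -1.37 at days 1, 2 and 14. Cebpb averaged 2.02 ± 0.663 FPKM in the IP and 5.53 ± 0.543 FPKM in the input at day 1, and differed by -0.81, -0.98 and -0.57. Pim1 differed by -0.44, -0.37 and -0.65 (limma adjusted p 0.0214, 0.0233 and 0.00729), with a call in VCX alone at each day and in PFC alone at none. The difference between the areas passed for Pim1 at day 2 (limma adjusted p 0.0243) and not at days 1 and 14 (0.307 and 0.563). Jak2 depends on the scaling. Its scaled differences were 0.74, 0.68 and 0.67, but as deposited it averaged 16.7 ± 1.47 FPKM in the IP and 16 ± 1.4 FPKM in the input at day 1. Without scaling the median of all genes shifted by -0.65, -0.65 and -0.66 at days 1, 2 and 14, and the Jak2 differences were 0.06, 0.00 and 0.01 and were not called. The other 8 genes called kept their direction and their call without scaling. Bcl3, which was not called in the scaled values, passed at day 1 without scaling, at -0.62 (limma adjusted p 0.00569).

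The LPS changes themselves differed between the fractions. At day 1, 4 genes changed more upward in the IP than in the input and 1 less, where over all 14891 genes tested 9.48% had a larger change in the IP and 6.52% a smaller one. The difference was 1.29 ± 0.21 for Cebpb (limma adjusted p 5.31e-05) and 1.04 ± 0.20 for Socs3 (limma adjusted p 0.000512), both of which were lower in the IP than in the input after PBS. It was 0.69 ± 0.21 for Osmr (limma adjusted p 0.0249) and 0.49 ± 0.10 for Stat3 (limma adjusted p 0.000736). Il6st had the opposite sign, -0.24 ± 0.06 (limma adjusted p 0.00327). At day 2 the difference held for Cebpb at 1.41 ± 0.22 (limma adjusted p 0.000174), Socs3 at 0.82 ± 0.20 (limma adjusted p 0.0184) and Stat3 at 0.33 ± 0.08 (limma adjusted p 0.0237), among 2.5% of all genes with a larger change in the IP. Taken by area, the Osmr value at day 1 was 1.29 ± 0.30 in PFC (limma adjusted p 0.00789) and 0.09 ± 0.30 in VCX (limma adjusted p 0.883). The difference between the areas, 1.19 ± 0.42, did not pass over all genes (limma p 0.00911, adjusted p 0.705), where 0% did. Within 1 area, Cebpb and Socs3 passed in both areas at day 1, Stat3 and Il6st in VCX (limma adjusted p 0.0136 and 0.0074, against 0.0566 and 0.351 in PFC). At day 2 Cebpb in VCX was the 1 gene that passed within an area (1.74 ± 0.31, limma adjusted p 0.0024). At day 14 no gene passed, 0% of 14599. The neutrophil and monocyte sums of day 1 after LPS were higher in the IP than in the input. They were 126.9 to 192.9 FPKM against 16.15 to 34.4 FPKM in PFC, and 105 to 160.7 FPKM against 13.3 to 27.8 FPKM in VCX. Microglia and macrophage sums were lower in the IP in both areas. Their part in these differences was not tested.

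**Figure D3:**
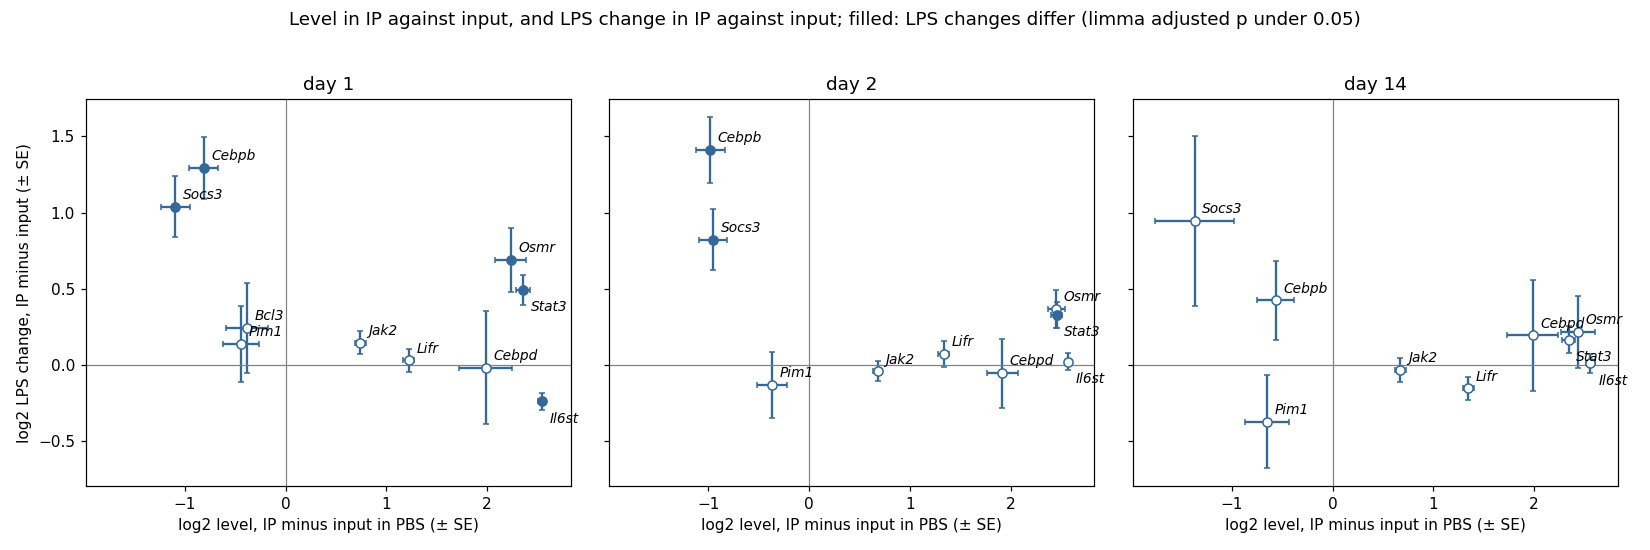
Scaled log2 level in the IP minus the input in PBS mice (horizontal, ± SE) against the log2 LPS change in the IP minus that in the input (vertical, ± SE), 1 point per gene and 1 panel per day; both axes use the same PBS libraries. Filled points have LPS changes that differ at a limma adjusted p under 0.05: 5 genes at day 1, 3 at day 2 and none at day 14.

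At day 2 fewer of the genes passed the test. In the IP, Osmr, Stat3, Socs3 and Cebpb rose in both areas, 4 of the 9 genes tested, with none falling. Over all 13847 genes 5.25% rose and 2.72% fell in PFC, and 4.38% rose and 3.11% fell in VCX. Bcl3 was below the filter at day 2 and was not tested. The median change of the 9 genes was 0.32 in PFC and 0.35 in VCX, against -0.02 over all genes in each area. Osmr in the PFC IP stood at 3.38, 3.65 and 2.37 FPKM after LPS, against 1.58, 1.43, 1.44 and 1.77 FPKM after PBS. The groups were apart, and the change was 0.98 ± 0.13 (limma adjusted p 0.000216). In the VCX IP Osmr averaged 4.98 ± 0.496 FPKM after LPS and 3.04 ± 0.0759 FPKM after PBS (0.68 ± 0.12, limma adjusted p 0.0019).

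Stat3 at day 2 stood at 56.5, 66.7 and 47.6 FPKM after LPS in the PFC IP, against 38.7, 41.2, 39.8 and 40.7 FPKM after PBS. Its groups did not overlap in either area, with changes of 0.53 ± 0.09 in PFC (limma adjusted p 0.00142) and 0.48 ± 0.08 in VCX (limma adjusted p 0.00138). Socs3 stood at 1.19, 0.872 and 1.24 FPKM after LPS in the PFC IP, against 0.336, 0.321, 0.395 and 0.283 FPKM after PBS (1.61 ± 0.23, limma adjusted p 0.000436). In the VCX IP it stood at 1.93, 0.778, 1.42 and 1.04 FPKM after LPS, against 0.49, 0.874, 0.479 and 0.354 FPKM after PBS. Here 1 LPS library fell below the highest PBS library, while the change still passed (1.10 ± 0.21, limma adjusted p 0.00441). Cebpb averaged 4.6 ± 0.8 FPKM after LPS and 1.65 ± 0.249 FPKM after PBS in PFC (1.40 ± 0.28, limma adjusted p 0.00739). In VCX it averaged 5.89 ± 2.35 FPKM after LPS and 1.87 ± 0.91 FPKM after PBS (1.64 ± 0.26, limma adjusted p 0.00129), with 1 LPS library at 9.37 FPKM.

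Il6st, Lifr, Jak2, Cebpd and Pim1 did not pass the test in the day 2 IP. Their changes ran between -0.04 for Lifr in VCX and 0.35 for Pim1 in VCX. Bcl3, not tested, stood at 0.107, 0.132 and 0.228 FPKM after LPS in the PFC IP, against 0, 0.0477, 0 and 0.037 FPKM after PBS. In VCX its lowest LPS library (0.07915 FPKM, 7 reads) and highest PBS library (0.07906 FPKM, 3 reads) all but met. The summed microglia and macrophage markers were 70.4 to 93.0 FPKM after LPS and 38.5 to 44.4 FPKM after PBS in the day 2 PFC IP, with 9 of 12 called, and 63.0 to 98.6 FPKM after LPS and 32.5 to 36.7 FPKM after PBS in VCX, with 11 called. The neutrophil and monocyte sums were 47.4 to 118.3 FPKM after LPS and 5.64 to 20.1 FPKM after PBS in PFC, and 37.9 to 83.6 FPKM after LPS and 1.86 to 6.55 FPKM after PBS in VCX. Endothelial sums were 7.76 to 14.6 FPKM after LPS and 4.29 to 7.6 FPKM after PBS in PFC, with 5 of 10 markers called, and 8.36 to 15.3 FPKM after LPS and 4.18 to 8.3 FPKM after PBS in VCX, with 4 called. Meningeal fibroblast sums were apart in PFC, 64.6 to 69.1 FPKM after LPS and 32.6 to 48.2 FPKM after PBS, with 1 of 8 called. Which of these markers passed the filter on low values through LPS libraries alone is not given here, nor is the direction of each call. The marker counts are therefore no support. The part of these markers in the day 2 results was not tested.

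In the day 2 input, Socs3 and Cebpb rose in PFC and no gene of the 9 tested passed in VCX. Over all 14317 genes 3.05% rose and 0.517% fell in PFC, and 1.76% rose and 0.21% fell in VCX. Socs3 in PFC stood at 2.97, 1.56, 1.96 and 1.32 FPKM after LPS, against 1.07, 0.965, 0.904 and 1.12 FPKM after PBS (0.76 ± 0.17, limma adjusted p 0.0203). Cebpb stood at 6.79, 6.06, 6.65 and 6.88 FPKM after LPS, against 4.94, 4.92, 5.48 and 4.57 FPKM after PBS (0.34 ± 0.08, limma adjusted p 0.0202). Both pairs of groups were apart, but both calls depend on single libraries. Leaving out PBS replicate 1 or 2 lost both calls, with limma adjusted p 0.0641 and 0.0914 for Socs3 and 0.0517 and 0.0656 for Cebpb. So did leaving out LPS replicate 1, with 0.0697 and 0.0624. The Socs3 call was also lost without LPS replicate 2 (0.054), and the Cebpb call without PBS replicate 4 (0.0884) or LPS replicate 3 (0.0687) or 4 (0.0749). Osmr, which reached the test largely through LPS libraries (7 against 1 PBS library at the filter), had a change of 0.46 ± 0.14 in PFC (limma adjusted p 0.131), with groups apart. In the same PFC libraries 11 of 12 microglia and macrophage markers rose, with sums of 548.1 to 744.9 FPKM after LPS and 264.8 to 306.3 FPKM after PBS. All 4 neutrophil and monocyte markers tested rose, with sums of 10.5 to 18.8 FPKM after LPS and 1.59 to 3.09 FPKM after PBS. These markers may have passed the filter through LPS libraries alone, so their count is no support. Of 12 endothelial markers 8 rose, with sums of 67.2 to 90.8 FPKM after LPS and 41.2 to 48.2 FPKM after PBS. Pericyte and smooth muscle sums were 63.9 to 78.4 FPKM after LPS and 48.7 to 61.5 FPKM after PBS, with 0 of 8 called. Their part was not tested.

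At day 14 no gene of the whole set passed the LPS test in any of the 4 comparisons, 0% of 13295 genes in the PFC and VCX IP and 0% of 14064 genes in the PFC and VCX input. At an unadjusted p under 0.05 limma gave 176 genes in the PFC IP, 288 in the VCX IP, 560 in the PFC input and 725 in the VCX input, with 1 of the 10 genes among them, Stat3 in the VCX IP. Limma-voom on reads worked back from the FPKM also called none of the 10. Bcl3 was not tested, and Socs3 in the IP reached the filter in 5 LPS and 3 PBS libraries. Stat3 in the VCX IP stood at 31.8, 48.0, 35.1 and 33.6 FPKM after LPS, against 28.5, 27.8, 31.4 and 30.6 FPKM after PBS. All 4 LPS libraries lay above the PBS libraries, by a narrow margin for the lowest, and the groups overlapped after scaling (0.29 ± 0.10, limma adjusted p 0.999). Osmr in the VCX IP stood at 4.33, 9.26, 3.97 and 4.23 FPKM after LPS, against 3.7, 3.96, 3.42 and 3.25 FPKM after PBS, and its groups did not overlap, before or after scaling (0.49 ± 0.23, limma adjusted p 0.999). Without VCX IP replicate 2 after LPS these changes were 0.19 ± 0.08 for Stat3 and 0.22 ± 0.18 for Osmr, and neither passed the test.

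Single libraries carry much of what is seen at day 14. Socs3 in the PFC IP stood at 3.83, 0.316, 0.281 and 0.366 FPKM after LPS, against 0.148, 0.249, 0.273 and 0.305 FPKM after PBS. In the VCX IP it stood at 0.456, 4.66, 0.396 and 0.542 FPKM after LPS, against 0.248, 0.477, 0.487 and 0.4 FPKM after PBS. The libraries at 3.83 and 4.66 FPKM exceed every IP library of days 1 and 2, while the other 6 lie at or near the PBS level. PFC IP replicate 1 after LPS was the highest of its group for 6 of the 10 genes (Stat3, Socs3, Osmr, Cebpb, Cebpd and Pim1). VCX IP replicate 2 was the highest for 7, PFC input replicate 1 for 6 and VCX input replicate 2 for 5. Such counts are not particular to these libraries. At day 14 after PBS, VCX IP replicate 3, PFC input replicate 1 and VCX input replicate 4 were each the highest for 6. In the 4 LPS libraries that stand apart, marker genes of other cells were also read. Their C1qa, a microglial gene, was 2.98, 4.38, 56.1 and 43.1 FPKM, and their S100a8, a neutrophil gene, 3.2, 2.66, 0.525 and 0.209 FPKM. C1qa was the highest of its group in the PFC input library, and S100a8 in none of the 4. Without these 4 libraries no day 14 LPS change of the 10 genes passed either. The changes of Socs3 were then 0.32 in the PFC IP and 0.18 in the VCX IP, against 1.15 and 0.97 with them. In the inputs they were -0.04 in the PFC input and -0.09 in the VCX input, against 0.21 and 0.01 with them.

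**Figure D4:**
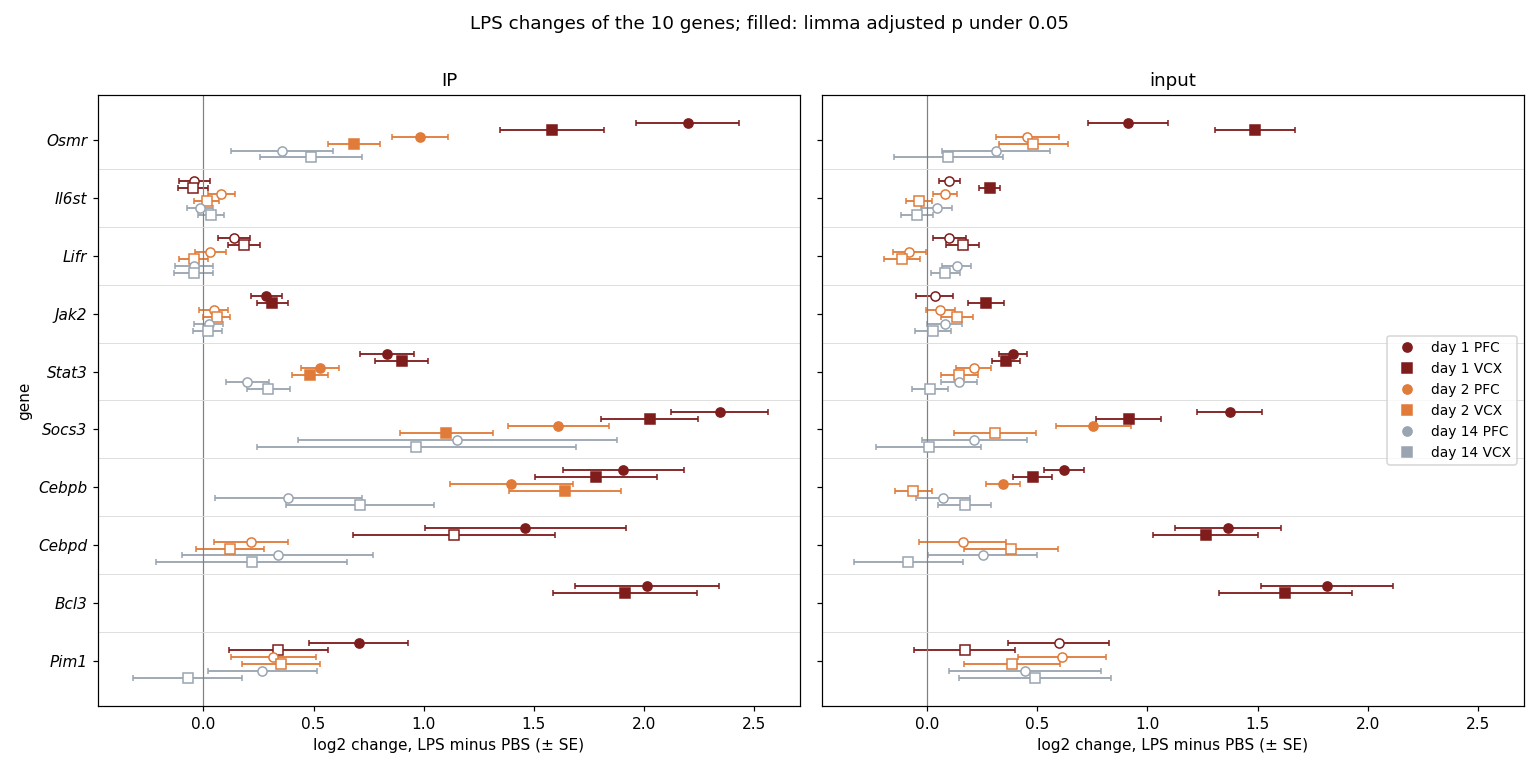
Log2 LPS change (horizontal, ± SE) of each gene (rows) in the IP and in the input, by day and area. Filled points pass a limma adjusted p under 0.05: Socs3, Osmr, Stat3 and Cebpb at days 1 and 2 in the IP of both areas, and no gene at day 14.

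Differences between days were tested on the LPS changes averaged over both areas. The day 2 change in the IP was smaller than that of day 1 for Osmr (-1.05 ± 0.22, limma adjusted p 0.000602), Stat3 (-0.36 ± 0.11, limma adjusted p 0.0239) and Jak2 (-0.25 ± 0.07, limma adjusted p 0.0067). Of all 14302 genes 9.66% had a lower change at day 2. In the input it was smaller for Osmr (-0.73), Cebpb (-0.41) and Cebpd (-1.03), where 2.79% of 14853 genes did so. For Cebpb in the IP the difference between day 2 and day 1 did not pass (-0.30, limma adjusted p 0.57), and neither did that of Socs3. This does not show that the changes were alike. All days of a fraction share 1 estimate of spread in these tests. For Socs3 it includes the day 14 IP libraries at 3.83 and 4.66 FPKM. The day 14 change in the IP was smaller than that of day 1 for 6 of the 10 genes, with 12.7% of all genes lower. These were Osmr (-1.47 ± 0.21), Bcl3 (-1.73 ± 0.36), Cebpb (-1.29 ± 0.31), Stat3 (-0.62 ± 0.11), Jak2 (-0.28 ± 0.06) and Lifr (-0.21 ± 0.08). Bcl3 was below the filter at day 14 and was tested through the LPS libraries of day 1 alone, in the input too, so it supports neither count. In the input it was smaller for 7, among 9.1% of all genes: Bcl3, Cebpd, Socs3, Osmr, Cebpb, Stat3 and Il6st, by -1.34, -1.23, -1.03, -0.997, -0.43, -0.29 and -0.20.

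Without the 4 day 14 libraries that stand apart, Socs3 and Cebpd joined the IP genes with a smaller change at day 14 than at day 1. The differences were -1.91 ± 0.25 and -1.45 ± 0.38 (limma adjusted p 2.84e-07 and 0.00555). These libraries were left out after their values were seen, and those of the IP hold the highest Socs3 and Cebpd of their groups. Leaving them out lowers the day 14 change of both genes, so these calls are no support. Lifr was no longer called. In the input the same 7 genes passed. Because days 1, 2 and 14 of the IP and input are separate projects, these day differences cannot be told apart from project differences in the LPS response.

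Between the areas, the LPS changes of the 10 genes did not differ by the test at any day in either fraction, where 0% of all genes passed in each of the 6 tests. Limma gave 444 and 1731 genes at an unadjusted p under 0.05 for the day 1 IP and input, 529 and 325 for day 2, and 85 and 146 for day 14. Of the 10 genes 3 were among them at day 1 and 1 at day 2, all in the input. The baseline did differ. In the PBS IP Osmr was lower in PFC than in VCX at every day. At day 1 it averaged 1.8 ± 0.277 FPKM in PFC and 3.89 ± 0.564 FPKM in VCX (-1.13 ± 0.23, limma adjusted p 0.00777). At day 2 it averaged 1.56 ± 0.159 FPKM in PFC and 3.04 ± 0.0759 FPKM in VCX (-0.94 ± 0.12, limma adjusted p 0.000156), and at day 14 1.9 ± 0.306 FPKM in PFC and 3.58 ± 0.314 FPKM in VCX (-0.88 ± 0.23, limma adjusted p 0.0428). The day 14 call was lost with ratio factors (0.0501), with a pseudocount of 1 (0.0658) and without the filter (0.0604). No other of the 10 genes passed in the IP, where 4.52%, 3.41% and 1.87% of all genes were lower in PFC at days 1, 2 and 14.

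In the PBS input, Lifr, Socs3 and Pim1 were lower in PFC at days 1 and 2, Cebpb at day 2 and Lifr at day 14, where 5.96%, 6.68% and 3.54% of all genes were lower at the 3 days. Lifr averaged 9.18 ± 0.611 FPKM in PFC and 12.8 ± 0.935 FPKM in VCX at day 1, and differed by -0.45, -0.53 and -0.50 at days 1, 2 and 14 (limma adjusted p 0.000562, 0.000199 and 0.000172). Socs3 averaged 1.14 ± 0.134 FPKM in PFC and 1.88 ± 0.294 FPKM in VCX at day 1, with differences of -0.64, -0.86 and -0.80 (limma adjusted p 0.00772, 0.0029 and 0.053). Pim1 averaged 1.66 ± 0.444 FPKM in PFC and 2.89 ± 0.795 FPKM in VCX at day 1, with differences of -0.73, -1.10 and -1.04 (limma adjusted p 0.0457, 0.00156 and 0.0929). Without the 4 libraries that stand apart, which share the estimate of spread at day 14, Socs3 passed in the day 14 input (limma adjusted p 0.0209), and Stat3 in the day 14 IP, where it was higher in PFC (0.27 ± 0.06, limma adjusted p 0.0285).

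In whole tissue of PFC at day 1, 0% of 14412 genes passed the LPS test, at 2804 genes with an unadjusted p under 0.05 by limma, 7 of the 10 among them. Stat3 stood at 19.4, 19.9 and 20.6 FPKM in the libraries labelled LPS, against 11.7, 11.7, 18.7 and 12.6 FPKM in those labelled PBS. Socs3 stood at 4.85, 5.5 and 4.72 FPKM in the libraries labelled LPS, against 1.57, 1.08, 3.75 and 1.82 FPKM in those labelled PBS. In both genes the third PBS library lies near the LPS libraries, and it is the highest PBS library for 8 of the 10 genes. Limma-voom called Bcl3, Cebpb, Osmr and Pim1, with 2.3% of all genes passing in either direction. Without the third PBS library 10.9% of 14329 genes passed, 6.34% up and 4.61% down, and 7 of the 10 genes rose. Among them were Socs3 (1.64 ± 0.16, limma adjusted p 0.000129), Bcl3 (1.61 ± 0.23, limma adjusted p 0.000953), Osmr (1.07 ± 0.13, limma adjusted p 0.000321) and Stat3 (0.67 ± 0.06, limma adjusted p 1.15e-05). Cebpd, Pim1 and Cebpb rose by 0.80, 0.71 and 0.68. The third PBS library was singled out after its values were seen to lie near the LPS libraries. It was the highest PBS library for each of these 7 genes. Leaving it out raises their changes, so these calls are no support. Without that library 11 of 12 microglia and macrophage markers rose too, with sums of 686 to 772.9 FPKM after LPS and 329.2 to 386.6 FPKM in the other 3 PBS libraries, against 655.8 FPKM in the third. Neutrophil and monocyte sums were 20.9 to 28.6 FPKM after LPS and 0.998 to 3.69 FPKM in the other 3 PBS libraries, against 10.9 FPKM in the third. Endothelial sums were 119.6 to 135.7 FPKM after LPS and 58.5 to 70.1 FPKM in the other 3 PBS libraries, against 122.7 FPKM in the third. The part of these markers was not tested, and their count without that library is no support for the same reason. Bcl3 again reached the filter through LPS libraries alone.

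The LPS change in the IP was also set between females and males, over both areas. No difference of the 10 genes passed the test, where 0.0358% of genes did at day 1 and 0.0139% at day 2. At an unadjusted p under 0.05 limma gave 2 of the 10 genes at day 1, where 16.5% of all genes were, and 1 of 9 at day 2, where 5.45% were.

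The rest of the pathway was read from 6 lists of genes. Beside their counts stand the shares of all genes that rose, 11.8% and 11.6% in the day 1 PFC and VCX IP, 8.1% and 7.76% in the day 1 input, 5.25% and 4.38% in the day 2 IP and 3.05% and 1.76% in the day 2 input. Over the 6 lists 24 of 67 genes tested rose in the day 1 PFC IP and 25 in the VCX IP, of which 6 and 5 passed the filter on low values only with the LPS libraries, so these had to be high after LPS to be tested. For PFC these were Csf3r, Jak3, Lrg1, Nfil3, Steap4 and Timp1. They support nothing in the counts. Of the 10 ligand genes of the interleukin-6 family, 4 could be tested in the day 1 IP and 3 in the day 1 input. Il6 was at 0 in most IP libraries, with a highest value of 0.139 FPKM after LPS and 0.0445 FPKM after PBS. Osm, the ligand of the Osmr receptor, reached 0.107 FPKM after LPS and 0.0262 FPKM after PBS in the IP, and 0.289 FPKM after LPS and 0.105 FPKM after PBS in the input. Lif ran from 0.317 to 1.02 FPKM after LPS and from 0.319 to 0.613 FPKM after PBS in the IP, and no change of it passed. At day 1, 2 ligand genes changed. Ctf1, cardiotrophin 1, fell in the day 1 VCX IP (-0.36 ± 0.10, limma adjusted p 0.0207). Ebi3, a subunit of interleukin-27 tested there through LPS libraries, rose in the day 1 input by 1.08 ± 0.21 in PFC and 1.32 ± 0.21 in VCX (limma adjusted p 0.00192 and 0.000323).

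Of 11 other receptor chains tested in the day 1 IP, 5 rose in PFC and 6 in VCX, and of 12 tested in the input 3 rose and 1 fell in PFC and 4 rose in VCX. Csf3r, the receptor of granulocyte colony-stimulating factor, averaged 0.8286 ± 0.156 FPKM after LPS and 0.268 ± 0.0902 FPKM after PBS in the PFC IP (1.43 ± 0.22, limma adjusted p 0.000192). Il4ra rose by 0.88 ± 0.18 in the PFC IP and by 1.26 ± 0.11 in the PFC input. Il11ra1, an abundant receptor chain in the IP, averaged 44.9 ± 1.59 FPKM after LPS and 31.9 ± 1.68 FPKM after PBS (0.51 ± 0.08, limma adjusted p 0.000181), and its input change did not pass. Il6ra, the chain that binds interleukin-6, was not tested in the day 1 IP. At day 2 it averaged 0.747 ± 0.25 FPKM after LPS and 0.19 ± 0.0428 FPKM after PBS in the PFC IP (1.61 ± 0.27, limma adjusted p 0.00149), and it rose in VCX by 1.64 ± 0.25. Like Csf3r, it passed the day 2 filter only with the LPS libraries. At day 2, 5 of 12 chains rose in the PFC IP, VCX IP and PFC input each and 2 in the VCX input.

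Of 8 other JAK and STAT genes tested, 3 rose and 1 fell in each day 1 IP comparison, the one that fell being Stat5a, and 2 rose in each input comparison. Jak3, 1 of the genes tested through LPS libraries, rose in the day 1 PFC IP by 1.63 ± 0.26 at a level of 0.715 ± 0.285 FPKM after LPS and 0.17 ± 0.0306 FPKM after PBS, and Stat2 by 0.96 ± 0.23. At day 2, 4 of the 8 rose in each IP comparison, 1 in the PFC input and 0 in the VCX input. Jak3 was 1 of the 4 in each IP comparison and again passed the filter only with the LPS libraries, so it supports neither count.

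Among other inhibitors of JAK-STAT signalling 3 of 15 rose in each day 1 IP comparison, beside Socs3. Ptpn6, a phosphatase of blood-derived cells, rose by 1.86 ± 0.25 in the PFC IP, and Socs1 by 1.05 ± 0.28. Ptpn1, a phosphatase of JAK kinases, rose by 0.25 ± 0.07 (limma adjusted p 0.0144). In the day 1 input 1 of 16 rose in PFC, and 1 rose and 1 fell in VCX. At day 2, 1 of 16 rose in each of the 4 comparisons. The input counts of day 1 and the IP counts of day 2 are near the share of all genes.

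Of 21 further STAT3 target genes, 11 rose and 1 fell in the day 1 PFC IP, 11 rose and 2 fell in the VCX IP, and 7 and 8 rose and 2 fell in the PFC and VCX input. In each input 2 of those that rose, Steap4 and Timp1, passed the filter only with the LPS libraries and support nothing in the count. Timp1, an inhibitor of matrix proteases, averaged 6.54 ± 5.49 FPKM after LPS and 0.283 ± 0.154 FPKM after PBS in the PFC IP (3.94 ± 0.65, limma adjusted p 0.000908). Steap4 rose by 3.36 ± 0.45 and Lrg1 by 2.66 ± 0.31 there, all 3 genes tested through LPS libraries. At day 2, 5 of 20 rose and 2 fell in the PFC IP, 4 rose and 2 fell in the VCX IP, 3 of 21 rose and 1 fell in the PFC input, and 2 rose in the VCX input. Of those that rose, Lrg1 in both IP comparisons and 1 gene in the PFC input passed the filter only with the LPS libraries. They support nothing in these counts. Of 8 partners of the C/EBP factors and Bcl3, 2 rose in each day 1 IP comparison. Cebpa rose by 0.94 ± 0.17 and Nfkb2 by 0.68 ± 0.18 in PFC, where the groups of both overlapped. In the day 1 input 3 of the 8 rose and 1 fell in PFC, and 2 rose and 1 fell in VCX. Of all these lists no gene passed at day 14 or in whole tissue with all 7 libraries. Without the third PBS library of whole tissue, where 6.34% of all genes rose and 4.61% fell, the genes that rose were 1 of 2 ligands, 4 of 12 receptor chains, 4 of 9 JAK and STAT genes, 2 of 16 inhibitors, 7 of 20 targets and 3 of 8 partners, and 2 targets fell. That library was singled out for values near the LPS libraries, so these counts are no support.

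Likeness was measured as Pearson's r of the log2 LPS changes over the 13 LPS comparisons, among 9625 genes outside the lists that were tested in all 13, averaged at least 2 FPKM in the day 1 IP after LPS and have no predicted or clone name. The genes most like Stat3 were Cmpk2 (0.954), Coch (0.952), Gstz1 (0.951), Xaf1 (0.942) and Sra1 (0.937). Those most like Socs3 were Il17rc (0.949), Tmem256 (0.942), Atp5f1 (0.934), Skp1a (0.93) and Atp5o (0.927). The comparisons share libraries' depth and, within a day and fraction, a scaling, and r is given as a description.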

How the data were processed

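The deposited FPKM values (reads divided by gene length and library total) of 101 mouse brain libraries were made by the authors with STAR and HTSeq on mm10, per the submitters' processing notes. Versions, annotation and the strand used in counting are not given in the sources used here. The files hold 24060 entries each. Of these 27 carry a date in place of a symbol, 4 entries were left out, and 24056 genes remained. Whole tissue files list genes in another order and were matched by symbol.

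FPKM were divided by scaling factors computed here (trimmed mean of M values, 30% of M and 5% of A trimmed), and 0.1 was added before taking log2. A gene was tested when it reached 0.5 scaled FPKM in a number of libraries equal to or above the size of its fit's smallest group. Tests used limma 3.58.1 in R 4.3.3 with trend and robust settings, and Benjamini-Hochberg adjustment over all tested genes with a threshold of 0.05. LPS and area comparisons had all groups of a day and fraction in 1 fit. IP against input had both fractions of a day in 1 fit, and differences between days had all days of a fraction. Sex was a covariate except in whole tissue and in the test between females and males, whose groups were split by sex. Interaction terms tested differences between days, areas, sexes and fractions, 37 comparisons in all. The fits were tested on simulated data.

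Levels are quoted as deposited, and changes are of scaled values. Depth per library ran from 43.85 to 72.96 M reads in the day 1 IP, 20.68 to 50.79 in the day 2 IP and 12.46 to 55.1 in the day 14 IP. It ran from 35.02 to 50.88 M in the day 1 input, 13.2 to 39.64 in the day 2 input, 4.21 to 35.91 in the day 14 input and 35.78 to 49.49 in whole tissue. Low genes rest on few reads in the shallow day 14 inputs.

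Alternatives were ratio factors, no scaling, a pseudocount of 1, a minimum of 1 FPKM or none, no sex term, 2 groups fitted alone, limma-voom on reads worked back from the FPKM and each library left out. Added after seeing the values were 1 that left out 4 day 14 libraries and 1 that set IP against input within each area.

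The members and lists were chosen with earlier results of these data known. All 10 genes are named in the comparisons. Of each pathway list, up to 3 genes called in the day 1 PFC IP with the largest change are named, with any ligand and Il6ra. Ctf1, Ebi3, Il11ra1 and Stat5a, where outside this rule, were named after their values were seen, as were Gfap, C1qa and S100a8. Gene positions are from GENCODE vM21 on mm10, and promoters from RefSeq on GRCm38.p6, matched by symbol. The values of 1 gene that this rule names are not reported here.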

Additional observations from a re-analysis of the deposited data

Results flagged for a closer look

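A single library stood away from the rest of its group in 19 of 230 groups of 4 libraries and genes tested, or 8.26%, where chance gives about 1 in 20. Of these, 18 were the highest of their group. At day 14 after LPS this held for Socs3 in the PFC IP (3.83 FPKM, next 0.366), the VCX IP (4.66, next 0.542) and the PFC input (2.46, next 1.09). It held for Osmr in the PFC IP (3.77, next 2.26) and the VCX IP (9.26, next 4.33), and for Bcl3 in the VCX IP (0.262, next 0.023). These are the libraries that stand apart at day 14. The day 2 VCX IP after LPS had Cebpb at 9.37 FPKM (next 5.24). Jak2 was at 21.7 FPKM in the day 1 PFC IP after LPS (next 20.02) and at 14.7 FPKM in the day 2 PFC input after LPS (next 13.7).

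Among PBS groups, the whole tissue library that stands near the LPS libraries had Stat3 at 18.7 FPKM (next 12.6) and Osmr at 1.503 FPKM (next 0.824). Osmr was at 0.985 FPKM in the day 1 VCX input (next 0.658) and at 0.725 FPKM in the day 14 PFC input (next 0.614). In the day 2 VCX input after PBS, Socs3 was at 2.38 FPKM (next 1.90) and Cebpd at 2.95 FPKM (next 1.55). Pim1 was at 2.32 FPKM in the day 1 PFC input (next 1.48), Lifr at 12.2 FPKM in the day 14 VCX input (next 11.2), and Cebpb at 3.56 FPKM in the day 14 VCX IP (next 2.36). The 1 low library was Cebpb in the day 1 VCX input after PBS, at 4.98 FPKM with the next at 5.97.

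The LPS change differed between days by limma for several genes. Day 2 minus day 1 in the IP was -1.05 for Osmr (adjusted p 0.000602), -0.36 for Stat3 (0.0239) and -0.25 for Jak2 (0.0067). In the input it was -0.73 for Osmr (0.0232), -0.41 for Cebpb (0.0178) and -1.03 for Cebpd (0.012). Day 14 minus day 1 in the IP was -0.62 for Stat3 (3.72e-05), -1.47 for Osmr (1.33e-06), -0.21 for Lifr (0.0442), -0.28 for Jak2 (0.00119), -1.29 for Cebpb (0.00172) and -1.73 for Bcl3 (0.000291). In the input it was -0.29 for Stat3 (0.00458), -1.03 for Socs3 (0.000161), -0.997 for Osmr (0.000306), -0.20 for Il6st (0.0111), -0.43 for Cebpb (0.00365), -1.23 for Cebpd (0.000518) and -1.34 for Bcl3 (0.00109). Day and sequencing project cannot be told apart.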

How the results depend on the processing

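Of the LPS changes of single genes, 875 of the values with 1 library left out kept direction and side of the threshold, 25 lost a call and 10 gained one, and 38 changed sign. No called change reversed. No paired analysis was possible because the labels carry no replicate numbers that link the groups. The counts of called genes moved as follows, and the cause was not tested. In the day 2 PFC input the count was 1 without the sex term and 0 to 2 with 1 library left out, and in the day 2 VCX input 1 without the filter. For PFC against VCX in PBS, limma-voom gave 2 in the day 2 IP and 3 in the day 14 input. In the day 14 IP that count, which is of Osmr, was 0 with ratio factors, with a pseudocount of 1 and without the filter, and leaving out the 4 day 14 libraries gave 2 there and 2 in the input. Whole tissue gave 4 with limma-voom and 0 to 7 with 1 library left out. The count of genes whose LPS change differed between IP and input was 3 at day 1 and 0 at day 2 in PFC alone, and 1 at day 2 in VCX alone, both chosen after seeing the data. The day 2 minus day 1 input count was 5 with a pseudocount of 1 and 5 with limma-voom.

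Uncalled changes that crossed 0 with 1 library left out had these log2 ranges. In the day 1 IP, Il6st in VCX ran from -0.101 to 0.023, and in the day 1 input, Jak2 in PFC from -0.009 to 0.082. In the day 2 IP, Cebpd in PFC ran from -0.025 to 0.333, Il6st in VCX from -0.048 to 0.044 and Lifr in VCX from -0.109 to 0.002. In the day 2 input, Cebpd in PFC ran from -0.001 to 0.29 and Il6st in VCX from -0.071 to 0.001. In the day 14 PFC IP, Lifr ran from -0.094 to 0.036, Il6st from -0.048 to 0.04 and Jak2 from -0.008 to 0.072. In the day 14 VCX IP, Cebpd ran from -0.171 to 0.531, Jak2 from -0.026 to 0.064, Lifr from -0.1 to 0.012 and Pim1 from -0.27 to 0.143. In the day 14 PFC input Socs3 ran from -0.027 to 0.411. In the day 14 VCX input, Cebpd ran from -0.247 to 0.075, Jak2 from -0.037 to 0.076, Socs3 from -0.085 to 0.103, Stat3 from -0.044 to 0.081, Osmr from -0.107 to 0.24 and Il6st from -0.085 to 0.001. In whole tissue Jak2 ran from -0.061 to 0.055. Without the 4 day 14 libraries the changes with another sign were Cebpd -0.001, Il6st 0.043 and Lifr 0.041 in the PFC IP, and Cebpd -0.202 and Lifr 0.013 in the VCX IP. They were Socs3 -0.036 in the PFC input, and Osmr -0.125, Socs3 -0.094 and Stat3 -0.005 in the VCX input.

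Calls were gained for Lifr in the day 1 VCX IP without scaling (adjusted p 0.0486) and without PBS replicate 3 (0.0249), for Il6st in the day 1 PFC input without scaling (0.0361), for Osmr in the day 2 PFC input with limma-voom (0.0442), and for Pim1 in the day 2 PFC input without PBS replicate 1 (0.0408). The Socs3 call there was lost without the sex term (0.0758). With 2 groups fitted alone, limma called 1884 genes in the day 1 VCX IP against 2936, 486 in the day 2 VCX IP against 1036 and 112 in the day 2 VCX input against 282. With 1 library left out these were 2175 to 4072, 625 to 969 and 136 to 309. In whole tissue limma-voom called 331 genes against 0 by limma, and limma 1569 without PBS replicate 3. For the sex difference at day 1 limma-voom called 37 against 5. Bcl3 rested on 0 to 10 reads and Socs3 on 31 to 88 reads in the day 1 VCX IP after PBS. In the day 14 VCX input after LPS they rested on 1 to 6 and 18 to 184 reads. The effect of depth was not tested.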
